A study of Mus musculus with 2 samples.

Results

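The genes described here are those of the type 17 cytokines and IL-21, together with factors and receptors that govern them: Il17a, Il17f, Il21, Il22, Rora, Il23r, Ahr and Il17ra. They were chosen by name, and every probe set whose annotated symbol was one of these 8 genes was used. A probe set is a group of short probes on the array that together read 1 stretch of a transcript. Of the 45101 probe sets on each array, 16 named 1 of these genes alone, covering 5 genes: Il17a with 1 probe set, Il21, Ahr and Il17ra with 2 each, and Rora with 9. A further 1 probe set named Il22 together with its neighbour Iltifb. No probe set used here named Il17f or Il23r, so these 2 genes were not analysed here.

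The samples were CD4+CD25hi regulatory T (Treg) cells, sorted by flow cytometry from spleens of mice aged 6 to 8 weeks. One group was wild type, and the other consisted of littermates deficient in the microRNA miR-125a, called knockout here as in the labels. RNA of several mice was pooled in equal amounts within each genotype, and each pool was read on 1 Affymetrix Mouse Genome 430 2.0 array, so there were 2 arrays, 1 per genotype. The number of mice in a pool, the strain and the way the deficiency was made are not given in the sources used here. With 1 pooled sample per genotype there was no replicate, no test between genotypes and no p-value, and each difference below is a difference between these 2 pools. In a bulk sample, fewer cells that make a transcript and less of it per cell cannot be told apart.

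IL-17A and IL-17F are secreted by Th17 helper cells, gamma-delta T cells and some innate lymphoid cells, and they make epithelial and stromal cells recruit neutrophils. The transcription factor RORalpha, encoded by Rora, helps to direct this programme, and the receptor for IL-23, of which Il23r encodes 1 chain, stabilises it. AHR, a receptor for aryl hydrocarbons and dietary ligands, promotes IL-22, a cytokine that acts on epithelia. IL-21 is made by Th17 and follicular helper T cells and acts on B cells and on T cells themselves. IL-17RA is the receptor chain shared by several IL-17 cytokines and is carried by many cell types. Treg cells can express parts of this programme while retaining Foxp3.

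The microRNA in which the knockout mice are deficient is shown first because it defines the groups. The 2 mature arms, 5′ to 3′ from RefSeq (GRCm38.p6, plus strand, chr17:17830817-17830840 for the 5p arm and chr17:17830855-17830876 for the 3p arm), have their seed, bases 2 to 8, in capitals.
mmu-miR-125a-5p: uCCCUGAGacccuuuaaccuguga
mmu-miR-125a-3p: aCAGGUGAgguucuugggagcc
The seed of the 5p arm was shared by 4 other mature mouse microRNAs of the table, miR-125b-5p, miR-351-5p, miR-6367 and miR-6394, and that of the 3p arm by 0. The arrays did not read the microRNA itself, so the deficiency could not be checked in these data.

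Every signal below is a MAS5 signal on a linear scale, and each ratio compares the 2 arrays for 1 probe set. Signals of different probe sets were compared to choose the brightest of a gene, to group probe sets by signal and in sums of markers. A signal difference between probe sets is not read as a difference in transcript level. A log2 ratio is that of the knockout signal over the wild-type signal after 16.3 was added to both, and folds are on that scale, which understates differences of dim probe sets. Probe sets counted as past the minimum had a mean signal of at least 62.5. The probe-set SD printed beside a ratio is the SD of a ratio found between probe sets of 1 gene at that signal, over 5030 genes; it leaves out variation between mice. Of the 16 probe sets that named 1 of the genes, 13 were past the minimum and 3, all of Rora, were below it. Of the 13, 1 was higher by 2-fold or more in the knockout pool and 0 were lower by as much. Over all 22491 probe sets past the minimum, 1.04% were higher by 2-fold or more and 1.52% lower by as much. The median ratio was -0.05 for the 13, with 6 above 0 and 7 below, and -0.028 for all probe sets, so the 2 medians lay close together. The cytokine probe sets lay on the high side, those of Rora around 0 and those of Il17ra on the low side.

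**Figure D1:**
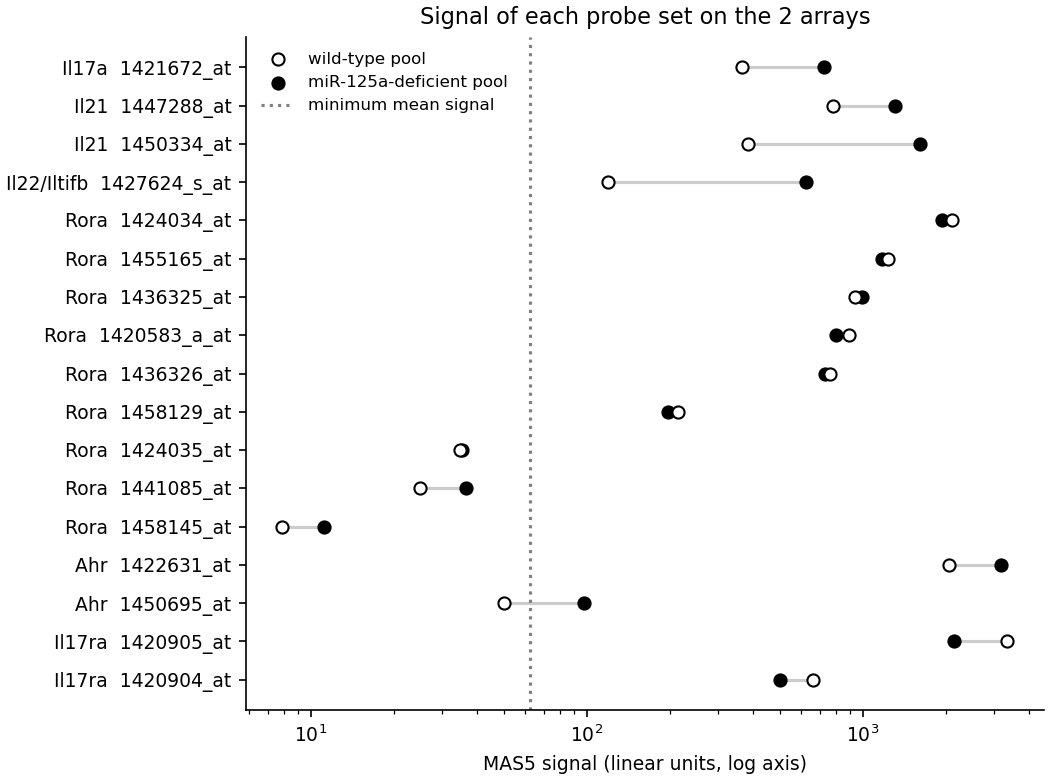
MAS5 signal (linear units on a log axis) of each of the 17 probe sets in the wild-type pool (open circles) and the knockout pool (filled circles), with the minimum mean signal of 62.5 as a dotted line. The filled circle lies to the right for Il17a, Il21, the Il22 and Iltifb probe set and Ahr, to the left for Il17ra, and close to the open circle for the 6 Rora probe sets past the minimum.

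Il17a, which encodes the founding cytokine of the family, had 1 probe set (1421672_at), with a signal of 367 in wild-type and 727 in knockout cells. The knockout signal was the higher one by 1.94-fold, a log2 ratio of 0.96 with a probe-set SD of 0.27. This lay just under the 2-fold line, and after quantile or loess scaling of the arrays it lay just over it, at 1.01 in both. Of the 3744 probe sets within 0.5 log2 of its mean signal, 33 had a higher ratio. Il17f, its neighbour on chromosome 1, was not analysed here, so the pair could not be set side by side.

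The window around the start site of Il17a is shown because a ROR element there is a textbook feature of this gene and Rora is among the genes measured. It spans 250 bases before to 50 bases after the start (RefSeq, GRCm38.p6, plus strand, chr1:20730655-20730954), with matches to AGGTCA, the core bound by ROR factors, and to TGANTCA, the AP-1 motif bound by factors such as BATF with JUN, in capitals.
Il17a: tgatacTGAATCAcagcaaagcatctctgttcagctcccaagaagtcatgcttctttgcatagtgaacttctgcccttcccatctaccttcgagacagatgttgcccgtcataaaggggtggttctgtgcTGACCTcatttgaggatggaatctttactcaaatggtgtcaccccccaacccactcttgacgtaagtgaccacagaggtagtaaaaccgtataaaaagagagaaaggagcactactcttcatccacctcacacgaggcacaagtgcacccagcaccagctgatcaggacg
Both strands were searched, also for GCGTG, the core of the AHR motif, and TTCNNNGAA, a STAT motif, and no 2 matches in this window overlapped. The ROR core lay on the minus strand, so the printed plus strand shows it as TGACCT, at bases -120 to -115 from the start. The AP-1 match, TGAATCA, lay at -244 to -238. Of 32851 windows of this length, 16.3% held the ROR core, 32.4% the AHR core, 7.81% the AP-1 motif and 8.3% the STAT motif, so a match is common and is a description of letters only. Windows were held by the table for 6 of the 8 genes and for Iltifb. The ROR core also appeared at -58 to -53 in Il17f and at -229 to -224 and -66 to -61 in Il23r, and the AHR core at -167 to -163 in Rora.

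Il21 encodes IL-21, and its 2 probe sets gave the same direction but very different sizes. The probe set annotated with a RefSeq mRNA (1450334_at) had a signal of 384 in wild-type and 1610 in knockout cells. That is 4.06-fold higher without miR-125a, a log2 ratio of 2.02 with a probe-set SD of 0.23, and 24 of the 22491 probe sets past the minimum had a higher one. The other (1447288_at), annotated with an expressed sequence tag, had 783 in wild-type and 1312 in knockout cells. Its difference was 1.66-fold, a log2 ratio of 0.73 with a probe-set SD of 0.23. The choice of probe set therefore decided whether Il21 passed 2-fold. The rule of the brightest probe set put the gene under it, at 0.73, but this choice was close, with mean signals over the 2 arrays of 1048 (1447288_at) and 996.8 (1450334_at), and in the knockout pool alone the other probe set was the brighter. The mean of both ratios, 1.38, lay over 2-fold.

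The gap between the 2 Il21 ratios was 1.29 on the log2 scale. It was wider than the gap between the 2 brightest probe sets in 99.4% of the 5030 genes that had them past the minimum, and wider than in 99.7% of the 1168 genes within 0.5 log2 of its signal. For comparison the gap was 0.05 for Rora, 0.16 for Ahr and 0.24 for Il17ra, and 12.7%, 41.3% and 57.7% of genes had a smaller one. RefSeq lists 2 transcripts of Il21; which of them each probe set reads was not tested.

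**Figure D2:**
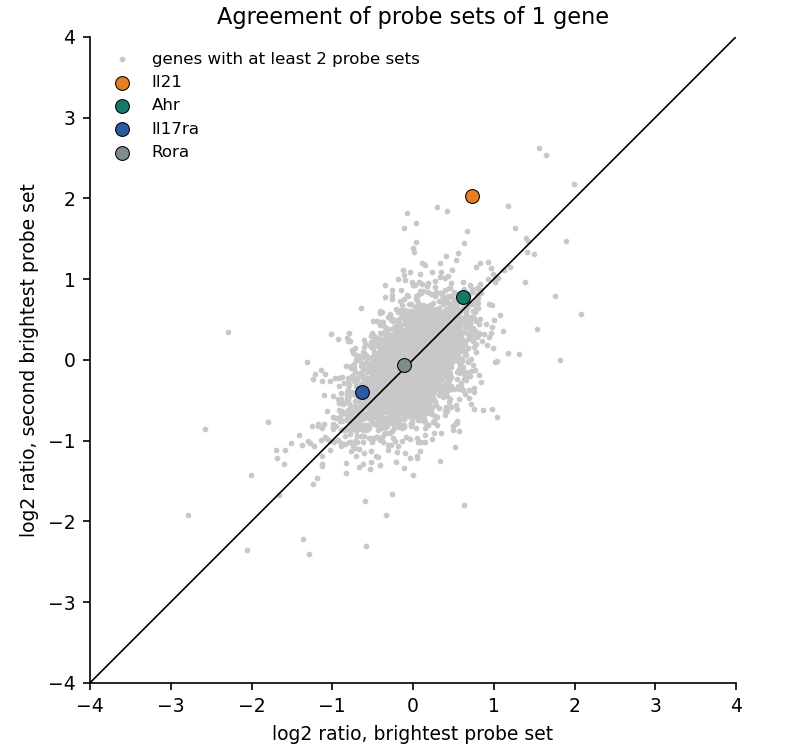
Log2 ratio (knockout over wild-type) of the second brightest against the brightest probe set of each of 5030 genes (grey), with the line of equal values. Ahr, Il17ra and Rora lie near the line, whereas Il21 lies well above it, at 0.73 on the horizontal and 2.02 on the vertical axis.

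The Il21 start-site window (RefSeq, GRCm38.p6, minus strand, chr3:37232587-37232886) is shown to set beside that of Il17a, with its 1 match, the AHR core GCGTG read on the other strand as CACGC, in capitals.
Il21: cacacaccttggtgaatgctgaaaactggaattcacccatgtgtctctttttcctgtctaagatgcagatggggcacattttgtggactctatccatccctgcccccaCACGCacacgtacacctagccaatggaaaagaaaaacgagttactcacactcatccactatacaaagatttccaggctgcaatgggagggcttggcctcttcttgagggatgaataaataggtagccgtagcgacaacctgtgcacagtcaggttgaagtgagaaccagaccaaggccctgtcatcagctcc
The match lay at bases -142 to -138, and the ROR, AP-1 and STAT letters had no match in this window.

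Il22 encodes IL-22, and in the mouse a close copy, Iltifb, lies beside it on chromosome 10. Their single probe set (1427624_s_at) named both, so its signal belongs to the pair and not to Il22 alone, and it was kept out of the counts. The signal was 119 in wild-type and 624 in knockout cells. It was 4.73-fold higher without miR-125a, a log2 ratio of 2.24 with a probe-set SD of 0.27. Of the 22491 probe sets past the minimum, 14 had a higher ratio, and 2 of the 3729 within 0.5 log2 of its signal did.

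The stretch of the 2 start-site windows that matched best, in an alignment without gaps, is shown because 1 probe set names both copies; it ran over 102 bases with 98 identical (RefSeq, GRCm38.p6, Il22 on the plus strand at chr10:118204885-118204986, Iltifb on the minus strand at chr10:118294994-118295095). The 4 differing bases are in capitals.
Il22: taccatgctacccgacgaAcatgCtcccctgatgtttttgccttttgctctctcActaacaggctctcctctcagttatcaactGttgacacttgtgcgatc
Iltifb: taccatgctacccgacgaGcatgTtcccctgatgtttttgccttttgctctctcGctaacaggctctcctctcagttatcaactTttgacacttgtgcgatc
The sequences of the array's own probes were not used here, so this stretch, chosen as the best match, shows neither the bases the probe set reads nor how alike the rest of the 2 genes is. In the full windows, that of Il22 held none of the motifs searched, and that of Iltifb held 1 ROR core at -115 to -110.

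**Figure D3:**
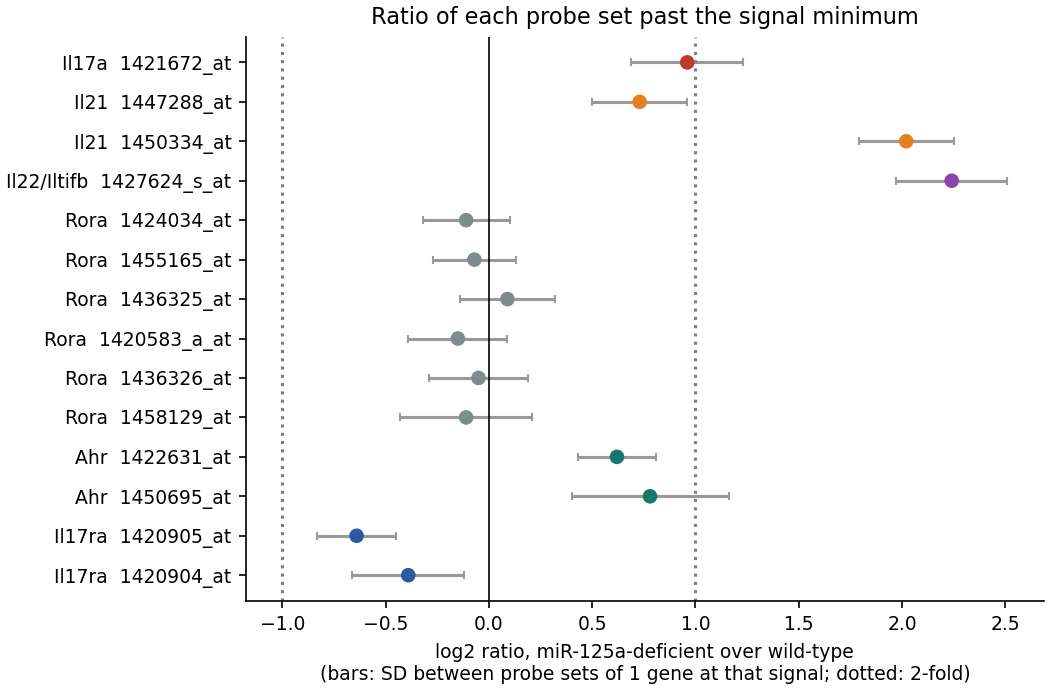
Log2 ratio (knockout over wild-type) of the 14 probe sets past the minimum, the shared Il22 and Iltifb probe set included, with the probe-set SD as bars and 2-fold as dotted lines. The shared probe set, at 2.24, and 1 of the Il21 probe sets, at 2.02, lie beyond 2-fold, Il17a lies at 0.96, and all bars of Rora cross 0.

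Rora encodes RORalpha, and its ratios lay close to 0 in every probe set past the minimum. Its brightest probe set (1424034_at) had a signal of 2103 in wild-type and 1945 in knockout cells, with a log2 ratio of -0.11 and a probe-set SD of 0.21. The 5 others past the minimum had 1235 against 1179 (1455165_at), 936 against 997 (1436325_at), 893 against 804 (1420583_a_at), 760 against 732 (1436326_at) and 214 against 198 (1458129_at), the wild-type value first. The 6 ratios ran from -0.15 to 0.09, with 5 below 0 and 1 above, and each was smaller than its probe-set SD. RefSeq lists 9 transcripts of Rora. The 3 probe sets below the minimum had signals of 34.9 and 35.5 (1424035_at), 24.9 and 36.5 (1441085_at), and 7.89 and 11.2 (1458145_at) in the wild-type and knockout pools, which are too dim for a ratio.

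Ahr was higher in the knockout pool in both of its probe sets, the dimmer of them near the minimum, and in neither by 2-fold. The brighter one (1422631_at) had a signal of 2052 in wild-type and 3167 in knockout cells, 1.54-fold higher, with a log2 ratio of 0.62 and a probe-set SD of 0.19. Of the 2134 probe sets within 0.5 log2 of that signal, 36 had a higher ratio. The dimmer one (1450695_at) had 50.2 in wild-type and 98.1 in knockout cells, with a log2 ratio of 0.78 and a probe-set SD of 0.38. Its mean signal passed the minimum, but its wild-type signal alone lay below that minimum. Its ratio therefore adds little to that of the brighter one. At that dimmer signal 162 of 3192 probe sets had a higher ratio.

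Il17ra, the receptor chain through which IL-17A and IL-17F signal, was lower in the knockout pool in both of its probe sets. The brighter one (1420905_at) had a signal of 3349 in wild-type and 2148 in knockout cells, 1.55-fold lower, with a log2 ratio of -0.64 and a probe-set SD of 0.19. Of the 2053 probe sets within 0.5 log2 of that signal, 62 had a lower ratio. The other (1420904_at) had 663 in wild-type and 501 in knockout cells, 1.31-fold lower, with a log2 ratio of -0.39 and a probe-set SD of 0.27, and 567 of 3747 probe sets near its signal had a lower ratio. The gene of the ligand and that of its receptor thus lay on opposite sides of 0 in these 2 pools.

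**Figure D4:**
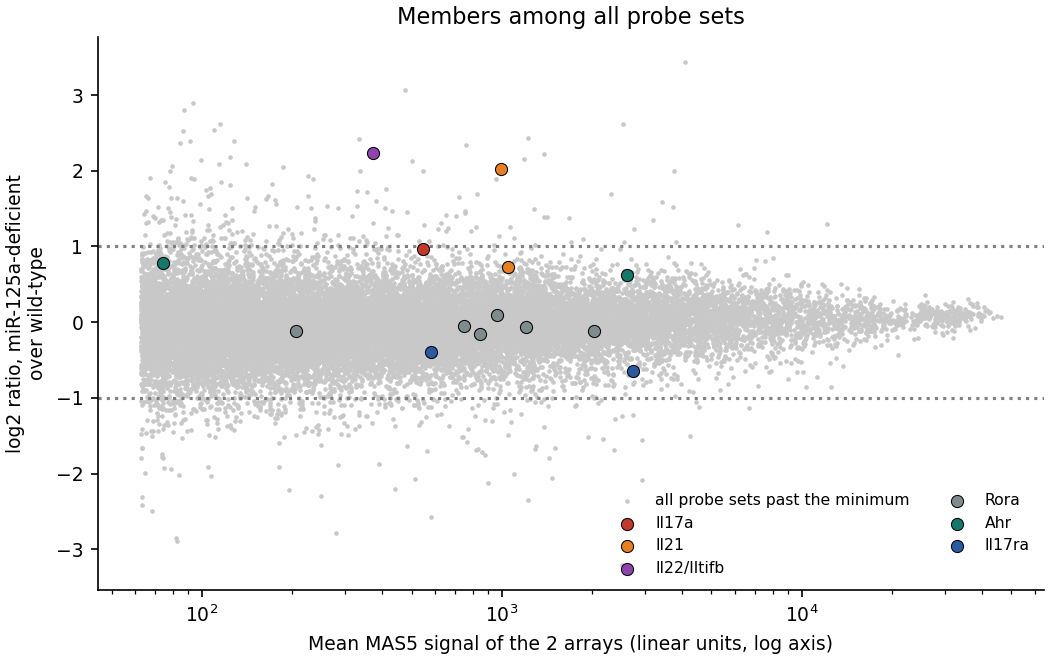
Log2 ratio (knockout over wild-type) against mean MAS5 signal of the 2 arrays (linear units on a log axis) for all 22491 probe sets past the minimum (grey) and for those of the genes described (coloured). The shared Il22 and Iltifb probe set and the Il21 probe set at 2.02 stand at the upper edge of the cloud, and Rora lies within its centre.

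The other genes of these pathways were followed in 7 lists, each gene by its brightest probe set. Over all 10583 genes past the minimum the median log2 ratio was 0.007, with 1.08% higher by 2-fold or more and 1.18% lower by as much. These were 114 higher and 125 lower genes, of which 47.7% were higher; after loess scaling the split was 145 and 102, or 58.7% higher. In the list of type 17 transcription factors, 10 of 11 named genes were past the minimum, 1 was higher by 2-fold or more, 0 were lower by as much, and the median was -0.25. Batf, an AP-1 factor needed for Th17 and follicular helper cells, was the gene past 2-fold, with 1790 in wild-type and 4598 in knockout cells and a log2 ratio of 1.35 (probe-set SD 0.19). Irf4 and Hif1a both had 0.21, and the other 7 were below 0. Dimmer probe sets past the minimum went the other way, with -0.05 for Irf4 and -0.02, -0.17 and -0.96 for Hif1a. Maf, which activates Il21 and Il4, was lowest at -0.82, with 5053 in wild-type and 2865 in knockout cells, and its 4 other probe sets past the minimum ran from -0.95 to -0.55. Nfkbiz, a nuclear cofactor that acts with ROR factors on Il17a, had -0.66, at 1989 in wild-type and 1253 in knockout cells. Its other probe sets had -0.69 and -0.06. Stat3, the factor through which IL-6, IL-21 and IL-23 act, had -0.21 (probe-set SD 0.16), at 11703 in wild-type and 10115 in knockout cells. Its other probe sets had -0.11, -0.26 and 0.44.

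Of the other genes of the IL-17 ligand and receptor family, 4 of 9 named were past the minimum, 0 reached 2-fold, and the median was 0.04. Il17rb, a receptor chain for IL-25, had a log2 ratio of 0.40 at 65.6 in wild-type and 92.1 in knockout cells, and Il17re, a receptor chain for IL-17C, 0.33 at 156 and 201. A second probe set of Il17re (1426566_s_at) had a ratio of 1.19, at 49.8 and 135. Traf3ip2, which encodes the adaptor ACT1 of IL-17 receptors, had -0.34 and Traf6, the ubiquitin ligase it engages, -0.25. The ligand genes Il17b, Il17d and Il25 were all below the minimum on mean signal, as were Il17rc and Il17rd. Il17rc encodes the chain that pairs with IL-17RA, and its brighter probe set had 11.2 in wild-type and 10.8 in knockout cells.

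By their brightest probe sets, the genes of the IL-21 receptor and its signal had log2 ratios from -0.21 to 0.10. All 6 named genes were past the minimum, 0 reached 2-fold and the median was -0.13. Il21r, the receptor's own chain, had a log2 ratio of 0.10 (probe-set SD 0.21), at 1636 in wild-type and 1754 in knockout cells. Jak3, a kinase of this receptor, had 0.07, whereas Jak1 and Stat3 both had -0.21 (probe-set SD 0.16) and Prdm1, a target of IL-21 signalling, -0.16. The other probe sets of Jak1 were lower still, at -0.27 (1433803_at, probe-set SD 0.19) and -0.70 (1433804_at, probe-set SD 0.24). The last had 1013 in wild-type and 618 in knockout cells.

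In the list of the IL-22 receptor, its signal and related cytokines, 5 of 7 named genes were past the minimum, 1 was at least 2-fold higher, 0 were lower by that much, and the median was 0.07. Il24, a cytokine of the same family, was the gene past 2-fold, at 7020 in wild-type and 17239 in knockout cells, a log2 ratio of 1.29 (probe-set SD 0.16). Its only probe set can match several transcripts of the gene. Il10, another relative and a suppressive cytokine of Treg cells, had 0.12, and Il10rb, the second chain of the IL-22 and IL-10 receptors, was lowest at -0.52, at 2437 in wild-type and 1691 in knockout cells, followed by Tyk2 at -0.15. Il22ra1, the chain that gives epithelia their response to IL-22, was below the minimum, with 3.64 in wild-type and 11.8 in knockout cells.

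Of the cytokines that induce type 17 cells and their receptors, 11 of 13 genes were past the minimum, 0 reached 2-fold, 4 were above 0 and the median was -0.19. Il6 had the highest ratio, 0.61 (probe-set SD 0.32), at 224 in wild-type and 351 in knockout cells, followed by Il23a, the specific chain of IL-23, at 0.37. The receptor chains Tgfbr2 and Il6ra had -0.44 and -0.35, and Tgfb1 -0.42. A second, dimmer probe set of Tgfbr2 (1425444_a_at) had -1.20 (probe-set SD 0.38), beyond 2-fold, at 135 in wild-type and 49.3 in knockout cells. The second probe set of Il6ra (1422270_a_at) had -0.01. Il12rb1, which pairs with the Il23r product, had -0.02, at 2021 in wild-type and 1989 in knockout cells. Il1r1, a receptor that supports Th17 cells, was below the minimum on mean signal, at 5.4 in wild-type and 87.3 in knockout cells. Without the minimum it counted as the 1 gene of this list at least 2-fold higher.

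Among the partners and targets of AHR past the minimum, only Arnt had a ratio beyond its probe-set SD by its brightest probe set. Of 6 named genes, 4 were past the minimum and all 4 were below 0, as were 5189 of all 10583 genes. The median was -0.24, with 0 higher by 2-fold or more and 1 lower by as much. That gene was Arnt, the partner with which AHR binds DNA, at 1314 in wild-type and 611 in knockout cells by its brightest probe set, a log2 ratio of -1.08 (probe-set SD 0.23). Its other probe sets past the minimum had -0.18 and -0.29, and averaged over its probe sets Arnt lay under 2-fold. Tiparp and Ahrr, both induced by AHR and acting to restrain it, had -0.15 (probe-set SD 0.20) and -0.27 (probe-set SD 0.38). Nqo1, a target enzyme, had -0.22 (probe-set SD 0.38). Ahrr, at 87.9 in wild-type and 70.4 in knockout cells, and Nqo1, at 88.6 and 73.5, were near the minimum. Cyp1a1, the classical AHR target, was below the minimum, with 27.4 in wild-type and 17.7 in knockout cells.

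All 7 genes of the list of chemokine receptors and secreted factors were past the minimum, 1 was higher by 2-fold or more, 0 lower by as much, and the median was -0.21. Csf2, which encodes GM-CSF, was highest at 2.12 (probe-set SD 0.27), at 177 in wild-type and 826 in knockout cells, followed by Lif at 0.37. Ccr6, the chemokine receptor typical of Th17 cells, and Ccl20, its ligand, were the 2 lowest. Ccr6 had 214 in wild-type and 118 in knockout cells, a ratio of -0.78 (probe-set SD 0.38), and Ccl20 had 670 and 378, a ratio of -0.80 (probe-set SD 0.27). The cytokine and the receptor by which type 17 cells are usually recognised therefore had opposite signs.

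**Figure D5:**
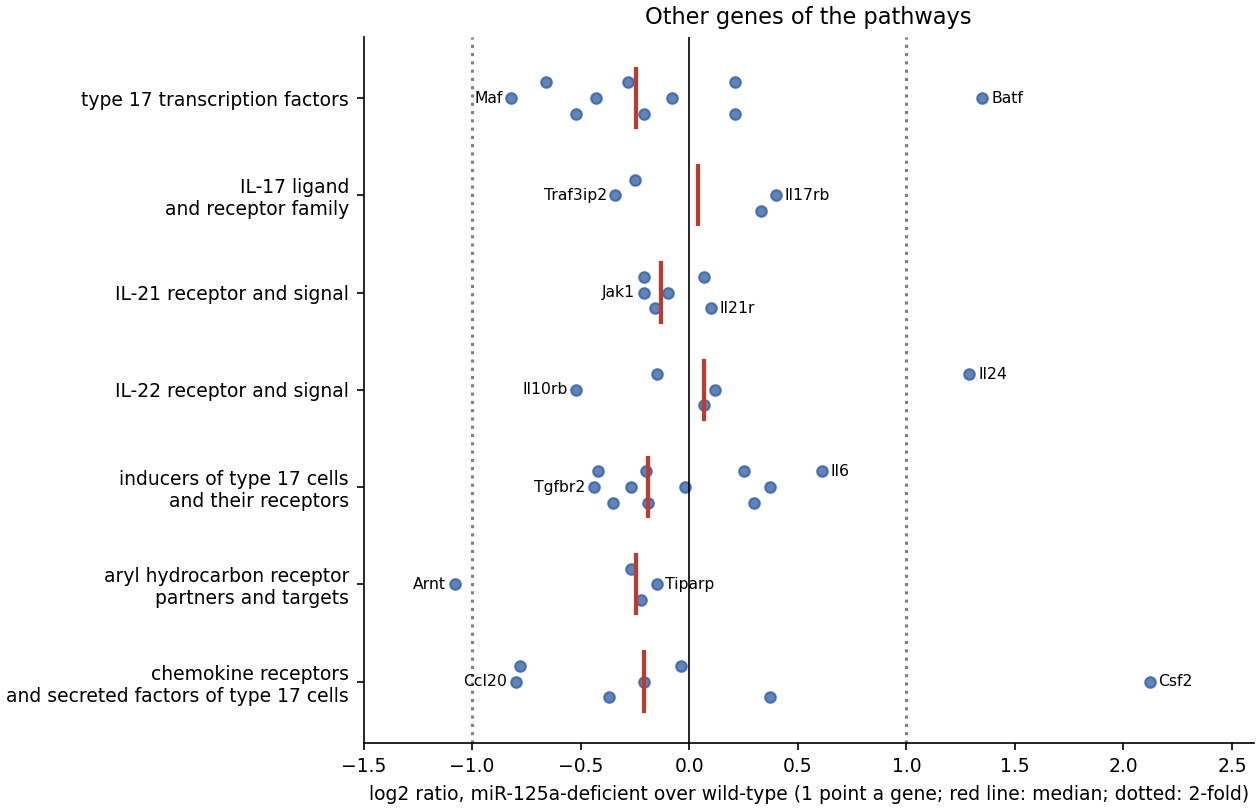
Log2 ratio (knockout over wild-type) of each gene past the minimum in the 7 pathway lists, 1 point a gene, with the list median in red and 2-fold as dotted lines; the highest and lowest gene of each list are named. Most genes lie within 2-fold, Batf, Il24 and Csf2 lie beyond it on the high side and Arnt on the low side.

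Markers of the cells' label were measured too. Passing the minimum cannot by itself establish the label, because markers of other cells passed it as well. All 6 CD4 T cell markers and all 8 Treg markers were past the minimum, among them Il2ra, which encodes CD25, a protein used for the sort, at 15390 in wild-type and 18551 in knockout cells. Foxp3, the lineage factor of Treg cells, lay 2.32-fold lower in the knockout pool, with signals of 1631 (wild-type) and 694 (knockout), and its part in the cytokine differences was not tested. The median of the Treg list was 0.07 and its summed signal 61388 in wild-type and 63702 in knockout cells. Most of the wild-type sum came from Tnfrsf18 (19705), Ctla4 (16623) and Il2ra (15390), with 1631 from Foxp3, so the sum says little about Foxp3. Markers of other cells that can make IL-17 or IL-22 were measured as well. Of 4 named markers of gamma-delta and innate-like T cells, 1, Cd163l1, was past the minimum, at -0.02, and the summed signal was 300 in wild-type and 204 in knockout cells. Of 6 named markers of innate lymphoid cells, 4 were past the minimum, with a summed signal of 6449 in wild-type and 4970 in knockout cells, most of it from Id2, which T cells also express. Kit in this list was 2.19-fold lower, at 643 in wild-type and 285 in knockout cells, whereas Tmem176a and Tmem176b, which type 17 cells also express, had ratios of 0.40 and 0.50. Of the 2 other probe sets of Tmem176a past the minimum, 1 (1441811_x_at) had 127 in wild-type and 273 in knockout cells, a log2 ratio of 1.01 (probe-set SD 0.32) beyond 2-fold, and the other (1425603_at) 0.31. The summed signals of the CD8 T and NK cell list (9441 and 6211), the B cell list (3672 and 2034), the myeloid list (555 and 395), the neutrophil list (180 and 46.4) and the mast cell and basophil list (416 and 357) were lower in the knockout pool, the wild-type value given first. Of the named genes of these lists, 4 of 5, 2 of 5, 3 of 7, 0 of 4 and 2 of 5 were past the minimum. These sums add the signals of different probe sets, and 1 bright gene made up most of several: Klrd1 had 7919 of the 9441 in wild-type cells, Ighm 3403 of the 3672 and Id2 5075 of the 6449. Markers of other cells were also measured past the minimum in both pools, among them Cd8a, at 435 in wild-type and 295 in knockout cells, Cd79b, at 228 and 205, Csf1r, at 159 and 126, Fcer1g, at 226 and 103, and Fcer1a, at 180 and 176. Ncr1, Cd79a, Cd14 and Itgam were below the minimum on mean signal. Itgam had 1.08 in wild-type and 6.86 in knockout cells, and the lowest signal on the arrays was 1. The part of other cells in the cytokine differences was not tested.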

How the data were processed

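The authors deposited log2 values of MAS5 signal, 1 for each probe set and array; MAS5 is named, with no version, in the submitters' processing notes. On a linear scale, both arrays had a trimmed mean of 500.0, with 2% of values left out at either end. MAS5 subtracts mismatch signal, so dim values vary widely, and detection calls were not used here. Depth has no meaning for an array; having 1 array per genotype limits the precision. Probe sets were named from the platform annotation, those naming several genes were kept out of counts, and 64 control probe sets were left out.

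Ratios used a pseudocount of 16.3, the 25th percentile of all signals, and the minimum was the median of the mean signals, 62.5. A gene was represented by its brightest probe set. The probe-set SD was computed in 10 groups of signal, from 0.38 in the dimmest to 0.16 in the brightest, as the SD of the difference between the 2 brightest probe sets of a gene over the square root of 2. The genes and lists were chosen with earlier results of these data known. The genes named were the 8 described, up to 2 highest and 2 lowest of each list, and the reference genes Foxp3, Stat3, Batf and Il21r (another is not reported here); others were named after their values were seen. Alternatives were 3 scalings, 2 pseudocounts, 2 minimums, folds of 1.5 and 3, the mean over probe sets, and dropping probe sets whose suffix marks more than a single transcript (_a_at, _s_at, _x_at). The computation was checked on simulated data with known changes. Python 3.11.15, numpy 2.4.6, pandas 2.3.3, scipy 1.17.1 and statsmodels 0.14.6 were used.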

Additional observations from a re-analysis of the deposited data

How the results depend on the processing

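No ratio of the genes described changed sign in any alternative that kept its probe set. After quantile or loess scaling Il17a passed 2-fold, at 1.01 in both, and 2 probe sets in place of 1 were at least 2-fold higher. Over all probe sets past the minimum, 1.26% were higher by as much after quantile and 1.27% after loess scaling. The shared Il22 and Iltifb probe set had 1.91 with the pseudocount at the median signal, and Il21 had 1.38 as a mean over probe sets. At 1.5-fold, 5 probe sets of the genes described were higher and 1 was lower, beside 4.62% higher and 7.75% lower of all probe sets past the minimum. The median of the IL-17 family list was -0.29 with the minimum at the 75th percentile and -0.25 once probe sets with the suffix _a_at, _s_at or _x_at were dropped, and that of the AHR list -0.62 with that minimum, where fewer genes were left. The median of the IL-22 list turned to -0.02 and -0.04 under the same 2 settings, and that of the IL-17 family list to -0.02 with no minimum. With no minimum 1 gene of the inducer list, Il1r1, was at least 2-fold higher; with the mean over probe sets 0 genes of the AHR list were at least 2-fold lower; and 0 genes of the IL-22 list were higher once the probe set of Il24 was left out. Over all genes, 808 were higher and 579 lower by 2-fold with no minimum, 35 and 47 with the minimum at the 75th percentile, and 58 and 57 with the pseudocount at the median signal. At 1.5-fold 5.01% of genes were higher and 5.77% lower, and at 3-fold 0.283% and 0.189%. No paired analysis was possible because each genotype had 1 array.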

Other observations

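The genes beside the 8 genes on the chromosomes were measured as well. The 2 nearest protein-coding genes on each side of each of the 8 genes, in the order of start sites in RefSeq, were 27 genes apart from the 8 themselves and Iltifb. Of the 25 that a probe set named, 18 passed the minimum, 0 differed by 2-fold or more, against 1.08% higher and 1.18% lower of all genes past the minimum, so a count of 0 among 18 is near the background. The log2 ratios ran from -0.66 to 0.68 with a median of 0.00. Il2, which encodes the T cell growth factor IL-2 and lies beside Il21, had a ratio of 0.31 (probe-set SD 0.38), at 68 in wild-type and 87.9 in knockout cells. Cetn4, on the other side of Il21, had -0.14. Ifng, which follows Il22 and Iltifb and encodes interferon gamma, had 0.33, at 11536 in wild-type and 14457 in knockout cells, beside 2.24 for the shared Il22 and Iltifb probe set, and Mdm1 before them had 0.47 (probe-set SD 0.38). Mcm3, a replication factor that follows Il17f, had 0.53, at 2472 and 3577. Il12rb2, which encodes a chain of the IL-12 receptor and lies beside Il23r, had -0.20. Both ends of the range lay beside Il17ra: Tmem121b had -0.66 (probe-set SD 0.38) and Ccdc77 0.68 (probe-set SD 0.27). The second brightest probe set of Ccdc77, also past the minimum, had -0.02. Tmem121b was near the minimum, at 81.1 in wild-type and 45.5 in knockout cells. Kdm5a, a histone demethylase next to Il17ra, had -0.45 (probe-set SD 0.21), and Hdhd5 -0.19 (probe-set SD 0.27). Of these 4 neighbours 3 lay below 0 by their brightest probe sets, and Il17ra had -0.64 and -0.39. Over all 10583 genes past the minimum 5189 lay below 0, so 3 of 4 says little, and a shared regional difference was not tested.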
